A study of Mus musculus with 4 samples.

Results

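The major histocompatibility complex (MHC) class II genes examined here were H2-Aa, H2-Ab1, H2-Eb1, Cd74, H2-DMa, H2-DMb1 and Ciita, 7 of the 20076 gene symbols counted in single cells of whole mouse lung. They were taken as a named list across antigen-presenting cells, endothelium, epithelium and fibroblasts. They were also chosen by their higher counts in ERG CKO fibroblasts, so that contrast is described below without a test. Single-cell RNA-seq was performed on 2 WT and 2 ERG CKO mice, one library each, and it gave 9363 cells. To delete the transcription factor ERG in endothelial cells (ECs), ERG fl/fl mice were crossed with CDH5-CreER(T), a tamoxifen-inducible Cre driven from an endothelial promoter. WT mice carried the same floxed alleles without Cre. Mice of both groups, on a C57/BL6 background and of both sexes, were given tamoxifen on 5 days at 0.5 mg per injection, and their lungs were taken 90 days afterwards. The study calls its ERG CKO and control animals young, and the age of the sequenced ones is not stated separately. Xist, expressed from the inactive X chromosome, was detected in WT 1 and ERG CKO 1, and the Y-linked Ddx3y in WT 2 and ERG CKO 2, so each group held a female and a male mouse.

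Class II molecules present peptides from material taken up by a cell to CD4 T cells. An alpha chain (H2-Aa) and a beta chain (H2-Ab1) fold around the invariant chain, the product of Cd74. This chain blocks the groove until lysosomal proteases remove it, and the H2-DM heterodimer (H2-DMa, H2-DMb1) then exchanges the remaining fragment for peptide. H2-Eb1 encodes the beta chain of a further pair, whose alpha chain H2-Ea is not among the genes examined here. Ciita, the class II transactivator, is recruited to short promoter elements called the X and Y boxes and switches the whole set on, constitutively in dendritic cells and B cells and after interferon gamma in many other cells, ECs among them.

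In the GENCODE vM21 annotation of mm10, 5 of these genes lie in the MHC on the plus strand of chromosome 17 (H2-DMa at chr17:34119541-34139101, H2-DMb1 at chr17:34153072-34160230, H2-Ab1 at chr17:34257689-34269419, H2-Eb1 at chr17:34305867-34316674) or on its minus strand (H2-Aa at chr17:34282744-34287823). Ciita lies on the plus strand at chr16:10480059-10528418. RefSeq (GRCm38.p6) gave 5 promoter windows for 4 of the 7 genes (H2-Aa, H2-DMa, H2-DMb1, H2-Eb1), and 250 bases before each transcription start were searched on both strands for an X box core (TAGCAAC, or TAGNAAC, with any base at N) and a Y box core (ATTGG). The stretches below show where these letters lie in 3 of the genes. Capitals mark plus-sense matches to TAGNAAC and ATTGG, and each sequence is written 5′ to 3′ in the direction of its gene.
H2-Eb1, chr17:34305747-34305836, plus strand: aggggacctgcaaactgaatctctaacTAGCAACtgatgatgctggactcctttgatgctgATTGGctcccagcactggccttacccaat
H2-Aa, chr17:34287854-34287943, minus strand: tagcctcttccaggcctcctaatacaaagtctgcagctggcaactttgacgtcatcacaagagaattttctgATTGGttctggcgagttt
H2-DMb1, chr17:34153087-34153116, plus strand: ggtttaccTAGTAACtgatgatgctaggct
The stretches of H2-Eb1 and H2-Aa run from 120 to 31 bases before the start and that of H2-DMb1 from 104 to 75. In H2-Eb1 the X box core began 93 bases before the start and the Y box core 59 bases before it. In H2-DMb1 they began 96 and 61 bases before the start, and the second of these lies outside the stretch shown. H2-Aa held a Y box core 48 bases before the start and no X box match, and 1 of the 2 windows of H2-DMa held a Y box core 198 bases before the start. Of all 32851 windows, 3.16% held TAGCAAC, 9.93% TAGNAAC, 33.8% ATTGG and 3.47% both TAGNAAC and ATTGG. The matches are descriptions of letters and not of binding.

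Levels are given as CPM, UMI counts scaled to the same total in each cell type and library, where a UMI (unique molecular identifier) marks one captured RNA molecule. They are compared between samples and cell types and not between genes, since a UMI count depends on the transcript. Median depth was 4611 to 4899 UMIs per cell across the libraries, 7 cell barcodes occurred in more than 1 library, and ERG CKO 1 had the most cells over 10% mitochondrial UMIs (11.8%, against 5.81 to 9.56% in the others). Cells were clustered without the class II genes and named from marker genes, so each name stands for cells that carry those markers. The 26 clusters gave 17 named cell types, and 4 clusters with 1714 cells stayed unnamed. Erg in ECs was at 85.4 and 88.3 CPM in the WT libraries against 105 and 81.8 CPM in ERG CKO (edgeR log2 fold change 0.07, SE 0.16, adjusted p = 0.878). The groups overlapped, and a count over the whole gene does not show a missing exon, so every direction below is between libraries as labelled.

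Class II RNA was not equally abundant in the libraries. The 7 genes together made up 5106 and 6837 CPM of all UMIs in WT 1 and 2 and 9356 and 9358 CPM in ERG CKO 1 and 2. Dendritic cells held 22.4 and 26.3% of these class II UMIs in WT against 50.6 and 41.7% in ERG CKO, and they numbered 22 and 29 against 86 and 37 cells. B cells held 25.7 and 36.4% against 21.1 and 27.7%. Any droplet can take up free RNA of the suspension, so the background was read in T cells, which should lack these genes in the mouse. T cells held 63.3, 296, 140 and 74.0 CPM in WT 1, WT 2, ERG CKO 1 and ERG CKO 2. Neutrophils, which should also carry little, held 176, 840, 1618 and 206 CPM. The order of the libraries was not that of the whole suspension in either cell type, and in both the groups overlapped. In T cells of WT 2, 4 of 187 cells with at least 20 class II UMIs held 78.3% of the signal.

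**Figure D1:**
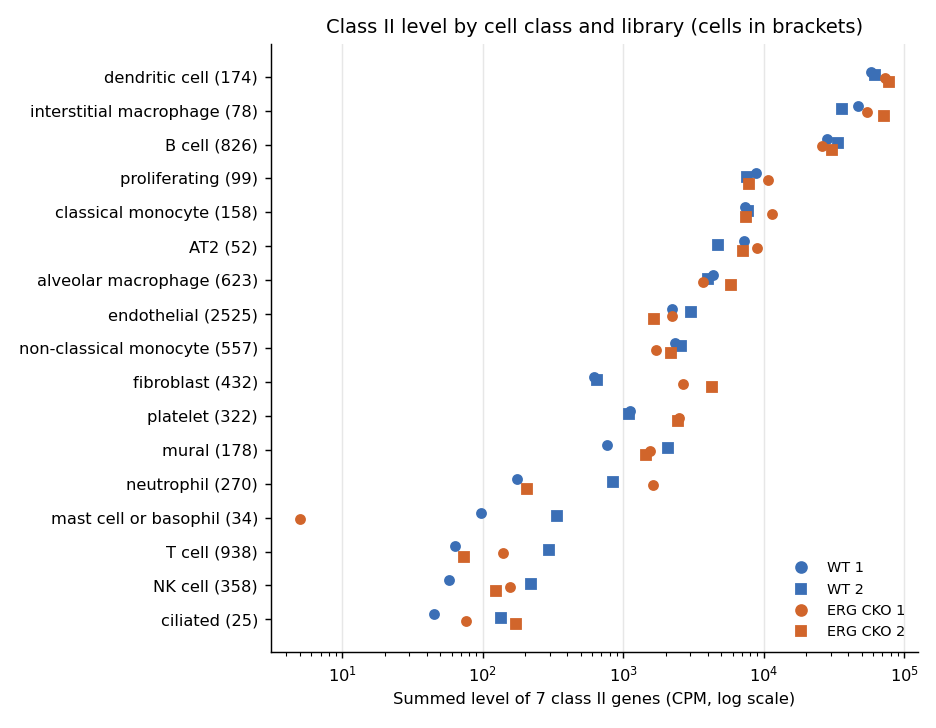
Summed level of the 7 class II genes (CPM, log scale) in each named cell type, with 1 point per library (WT blue, ERG CKO orange; circles for mouse 1, squares for mouse 2) and the number of cells in brackets. Dendritic cells, interstitial macrophages and B cells lie at 25979 CPM or more in every library and T cells at no more than 296. A library of mast cells or basophils with no UMI is drawn at 5 CPM.

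Dendritic cells carried the highest class II level of the lung, with a mean of 67604 CPM over the 4 libraries. Interstitial macrophages followed with 52140 CPM and B cells with 29639 CPM. Every library of interstitial macrophages lay above every library of B cells (lowest 36356 against highest 33556), and B cells lay above all remaining types, whereas dendritic cells and interstitial macrophages overlapped. Proliferating cells (8725 CPM), classical monocytes (8496 CPM), alveolar type 2 (AT2) cells (7014 CPM) and alveolar macrophages (4470 CPM) formed the next group, in which neighbours overlapped. Alveolar macrophages (lowest 3717 CPM) lay above ECs (highest 3038 CPM). ECs (2280 CPM), non-classical monocytes (2212 CPM), the fibroblast cluster (2054 CPM), platelets (1791 CPM), mural cells (1460 CPM) and neutrophils (710 CPM) overlapped with their neighbours in this order. Mast cells or basophils, T cells, NK cells and ciliated cells lay at 107 to 144 CPM. The mean over ECs was thus 15.9-fold that of T cells. Without alignment of the libraries before clustering, ECs took the ninth place and non-classical monocytes the eighth. The AT2 cluster then had 148 cells, with markers of alveolar type 1 and club cells as well. It held 4378 CPM, below alveolar macrophages (4470 CPM).

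Among these types, AT2 cells, which make surfactant and line the alveolus, carried class II RNA in every cell. All 52 AT2 cells held at least 5 class II UMIs, at median depths of 19193 to 24984 UMIs per cell. Their level was 7200 and 4712 CPM in WT 1 and 2 against 9028 and 7114 CPM in ERG CKO 1 and 2, on 21, 14, 9 and 8 cells. The lowest library was WT, the highest ERG CKO, and the groups overlapped. After each cell was thinned to 1000 UMIs, so that depths match, 92.9 to 100% of AT2 cells held a class II UMI against 5.38 to 8.49% of T cells (unthinned 29.3 to 40.5% of T cells, at median depths of 6201 to 6793 UMIs). In 3 of 4 libraries the B cell markers summed to no more than 40.5 CPM in AT2 cells, and in ERG CKO 1 to 796 CPM, whose part in the level there was not tested. Ciliated cells, the other epithelial type, lay at 45.0 to 172 CPM on 25 cells, which overlapped the 63.3 to 296 CPM of T cells.

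The genes most alike the class II pattern were sought over the 17 named cell types, with the mean of the WT libraries. Pearson's r of the log2 level with the mean log2 level of H2-Aa, H2-Ab1, H2-Eb1 and Cd74 was 0.94 for H2-DMb1, 0.93 for H2-DMa and 0.86 for Ciita. Outside the list and among 7840 genes, it was highest for Pkib (0.85), Ifi30 (0.83), Erp29 (0.83) and Gdi2 (0.82). Ifi30 encodes a lysosomal thiol reductase that unfolds antigens for class II loading, and Pkib an inhibitor of protein kinase A. The points share libraries, and a cell type with few cells counts as much as one with many.

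In the cells that present antigen by profession the groups were set side by side gene by gene. The level of a group was tested with the edgeR quasi-likelihood test on counts summed per library, with p adjusted over all genes of the cell type. Outside fibroblasts, 12 cell types had at least 10 cells in every library, and 1 of 67 tests of class II genes passed an adjusted p of 0.05, that of H2-DMb1 in ECs, against 0.559% of all tests in these cell types. An unadjusted p of at most 0.05 was found in 22 of the 67, against 7.39% of all tests.

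In dendritic cells the chain genes lay higher in ERG CKO. H2-Eb1 was detected at 9923 and 10087 CPM in WT 1 and 2 against 13370 and 13719 CPM in ERG CKO 1 and 2. H2-Ab1 was at 9850 and 10962 against 13062 and 14516 CPM, and H2-Aa at 9547 and 10051 against 11883 and 12106 CPM. In each of these both ERG CKO libraries lay above both WT libraries, as they did for Cd74 (26456 and 28351 against 32747 and 35650 CPM). Such an order was found for 4 of 7 class II genes and for 20.4% of all genes of at least 10 UMIs in dendritic cells. The log2 fold change was 0.44 for H2-Eb1 (SE 0.12, adjusted p = 0.168, edgeR), 0.41 for H2-Ab1 (adjusted p = 0.264), 0.32 for Cd74 (adjusted p = 0.356) and 0.29 for H2-Aa (adjusted p = 0.472). None of the 7 passed the test, against 0.813% of all genes in dendritic cells. The exchange factor did not share this order, since H2-DMb1 was at 882 and 772 against 829 and 806 CPM and H2-DMa at 1265 and 1243 against 1002 and 1090 CPM. The kinds of dendritic cell also differed between the libraries. Markers of the cross-presenting cDC1 kind were lower in both ERG CKO libraries, with Xcr1, a chemokine receptor, at 141 and 90.1 against 32.2 and 42.6 CPM and Clec9a, a receptor for dead cells, at 131 and 72.1 against 21.5 and 26.6 CPM. Clec10a, a lectin of the cDC2 kind, was at 31.02 and 152 against 228 and 295 CPM. Their part in the class II levels was not tested.

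B cells held more even levels. Cd74 was at 15856 and 18174 CPM in WT against 14008 and 17095 CPM in ERG CKO, and H2-Ab1 at 3871 and 4770 against 3544 and 4128 CPM. The groups overlapped for the 4 chain genes, and the log2 fold changes of H2-Aa, H2-Ab1, H2-Eb1 and Cd74 lay between -0.15 and -0.05. Ciita (41.3 and 42.5 against 19.8 and 34.6 CPM) and H2-DMb1 (112 and 132 against 69.99 and 105 CPM) were lower in both ERG CKO libraries. In 3 of 7 genes both ERG CKO libraries were lower, as in 17.9% of all genes of at least 10 UMIs in B cells. Neither Ciita nor H2-DMb1 passed the test (log2 fold change -0.65, adjusted p = 0.685, and -0.49, adjusted p = 0.682, edgeR), and 0.439% of all genes did in B cells.

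Interstitial macrophages had 7 to 39 cells per library and were fitted with a minimum of 5 cells, a choice made after the data were seen. Their class II level was 46579 and 36356 CPM in WT against 54333 and 71294 CPM in ERG CKO, so both ERG CKO libraries lay above both WT libraries. Fold changes of 6 of 6 genes tested were positive, from 0.35 for H2-DMb1 to 0.73 for H2-Ab1 on the log2 scale, and none passed (smallest adjusted p = 0.562, edgeR), like none of the 1453 genes tested in this type (0.0%). Median depth differed widely here, from 1183 UMIs per cell in ERG CKO 1 to 9571 in WT 2. Non-classical monocytes went the other way, with H2-Ab1 at 285 and 237 CPM in WT against 163 and 170 CPM in ERG CKO (log2 fold change -0.68, adjusted p = 0.311, edgeR). In these cells 6 of 6 fold changes were negative, in 4 both ERG CKO libraries lay below both WT libraries (13.1% of all genes of at least 10 UMIs), and none of 7027 genes passed (0.0%).

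**Figure D2:**
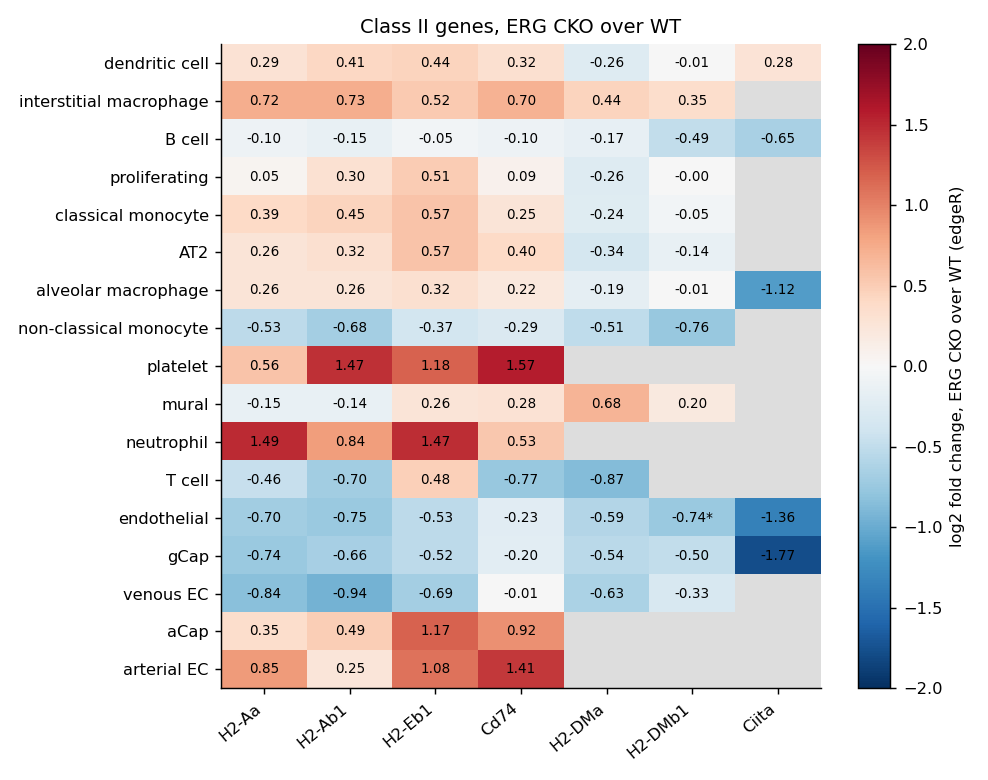
Log2 fold change of each class II gene, ERG CKO over WT, from the edgeR fit of each cell type (rows above the endothelial row) and of ECs and their subtypes (the last 5 rows). Red is higher and blue lower in ERG CKO, grey was not tested for low counts, and the star marks the adjusted p of at most 0.05 of H2-DMb1 in ECs. Interstitial macrophages and AT2 cells were fitted with at least 5 cells per library, and fibroblasts and NK cells are not shown.

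ECs numbered 578 and 701 cells in WT against 744 and 502 in ERG CKO, and all 7 class II genes had negative fold changes in them. H2-DMb1, the beta subunit of the peptide exchange factor, was detected at 118 and 126 CPM in WT 1 and 2 against 78.5 and 71.05 CPM in ERG CKO 1 and 2. Both ERG CKO libraries lay below both WT libraries, and H2-DMb1 fell by 0.74 on the log2 scale (SE 0.13, adjusted p = 0.0315, edgeR), where 2.98% of the 10712 genes tested in ECs passed. It was the only one of the 7 to pass, and its log2 fold change stayed between -0.86 and -0.66 over its 15 alternatives. DESeq2 called 3 in ECs (H2-Aa, H2-Ab1 and H2-DMb1), and edgeR without a filter on low counts called 6, all but Cd74. With the replicate number as a block, which followed sex, edgeR called 5 (Ciita, H2-Aa, H2-Ab1, H2-DMa and H2-DMb1). The call of H2-DMb1 was lost without WT 1, without WT 2 and without cells carrying a leukocyte marker, with an adjusted p of up to 0.149 over its 15 alternatives.

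H2-Ab1 was at 449 and 567 CPM in WT against 330 and 291 CPM in ERG CKO (log2 fold change -0.75, SE 0.16, adjusted p = 0.0595, edgeR). H2-Aa was at 400.5 and 523 against 323 and 259 CPM (-0.70, SE 0.18, adjusted p = 0.0993). H2-Eb1 was at 303 and 397 against 291 and 206 CPM (-0.53, SE 0.21, adjusted p = 0.262). For each of these 3 chains the ERG CKO libraries lay below the WT libraries, although H2-Eb1 in WT 1 and ERG CKO 1 differed by little. Ciita was at 12.2 and 13.2 CPM in WT against 4.95 and 5.21 CPM in ERG CKO (edgeR log2 fold change -1.36, SE 0.29, adjusted p = 0.0606). H2-DMa was at 58.1 and 84.5 against 47.7 and 50.2 CPM (-0.59, adjusted p = 0.174). Cd74 stood apart, with 867 and 1327 CPM in WT against 1134 and 780 CPM in ERG CKO. Its groups overlapped (edgeR log2 fold change -0.23, SE 0.25, adjusted p = 0.736).

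In 6 of 7 genes both ERG CKO libraries thus lay below both WT libraries, an order found for 18.7% of all genes of at least 10 UMIs in ECs. The median log2 fold change was -0.70 over the 7 genes and 0.01 over all genes tested. Cd74 made up 42.9 and 47.1% of the UMIs of the 4 chain genes in WT ECs against 54.6 and 50.8% in ERG CKO ECs, with no overlap, against 55.1 to 57.1% in B cells and 46.1 to 47.7% in dendritic cells. B cell markers summed to 84.3 and 36.6 CPM in WT ECs and 109 and 111 CPM in ERG CKO ECs, with none of the 7 at 0. Dendritic cell markers summed to 77.7 and 78.0 against 103.7 and 85.2 CPM. Both sums were higher in both ERG CKO libraries, and their part in the class II levels was not tested.

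**Figure D3:**
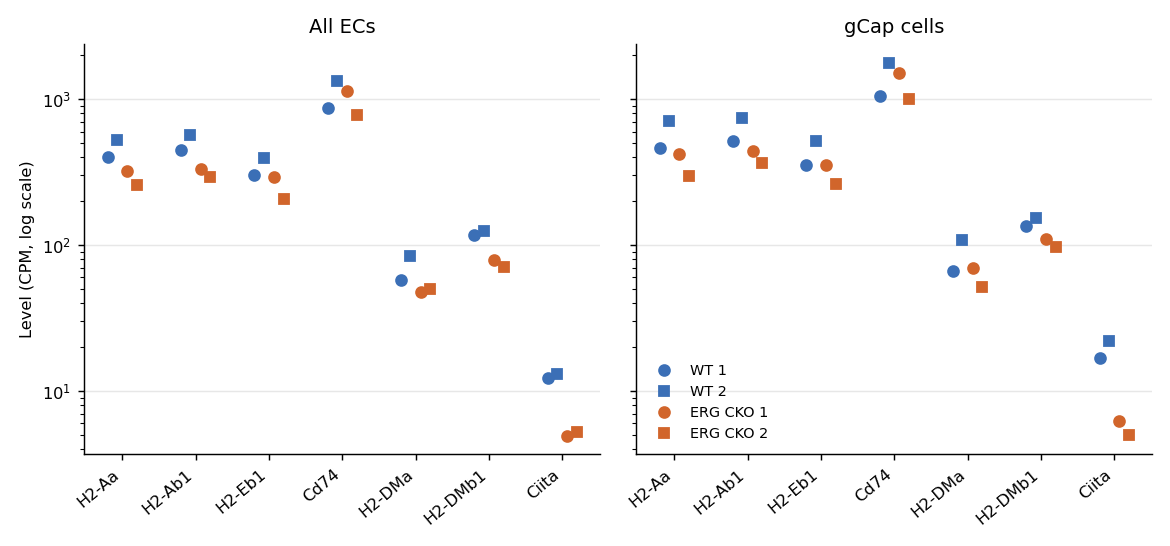
Level of each class II gene (CPM, log scale) in all ECs (left) and in gCap cells (right), with 1 point per library (WT blue, ERG CKO orange; circles for mouse 1, squares for mouse 2). In ECs both orange points lie below both blue points for every gene but Cd74, and for Ciita they lie at 4.95 and 5.21 against 12.2 and 13.2 CPM.

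The share of ECs that held any class II UMI was lower in ERG CKO. The make-up of the ECs differed too, with 309 and 341 general capillary cells in WT lungs and 238 and 168 in ERG CKO lungs, and with 43 and 72 aerocytes, which carry little class II, against 108 and 90. After thinning to 1000 UMIs per cell, for which 3, 8, 10 and 9 ECs of WT 1, WT 2, ERG CKO 1 and ERG CKO 2 were too shallow, it was 67.5 and 72.2% in WT lungs against 52.2 and 43.4% in ERG CKO lungs, and unthinned it was 86.3 and 87.2% against 78.2 and 62.4% at median depths of 4224, 4004, 5449 and 4616 UMIs. The thinned mean was 69.8% ± 3.30 (SD, n = 2) for WT against 47.8% ± 6.20 (SD, n = 2) for ERG CKO, which lay -22.0 points from it. A two-sided exact permutation test over the libraries gave p = 0.333, the smallest that 2 against 2 allows. All 4 shares lay above the 5.38 to 8.49% of T cells. The cells that did hold class II held overlapping amounts, with a thinned mean of 3.65 and 4.74 UMIs per carrying cell in WT against 4.19 and 3.88 in ERG CKO. The share of carrying cells thus separated the groups, and the amount per carrying cell did not.

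Lung ECs fall into general capillary (gCap) cells, aerocytes (aCap), which are the thin cells of gas exchange, and arterial, venous and lymphatic cells. Class II RNA differed strongly among them. It was detected at 2603 and 4028 CPM in WT gCap cells and at 1801 and 2250 CPM in WT venous ECs, but at 123 and 219 CPM in WT aCap cells, near the level of T cells (63.3 and 296 CPM). WT arterial ECs lay between, at 448 and 750 CPM. Thinned shares followed the same order in each WT library, with 74.5 and 81.8% of gCap cells, 70 and 74.5% of venous ECs, 17.6 and 35.3% of arterial ECs and 9.30 and 9.72% of aCap cells.

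In ERG CKO, gCap cells held 2907 and 2083 CPM, and the groups overlapped. None of the 7 genes passed the test in gCap cells, where 1.86% of all genes did, although all 7 fold changes were negative and in 4 both ERG CKO libraries lay below both WT libraries (18.0% of all genes of at least 10 UMIs). Ciita was at 16.8 and 21.9 CPM in WT against 6.19 and 5.03 CPM in ERG CKO (log2 fold change -1.77, SE 0.43, adjusted p = 0.0666, edgeR). H2-Ab1 was at 515 and 738 against 444 and 367 CPM (-0.66, adjusted p = 0.152), and H2-Aa at 465 and 712 against 422 and 297 CPM (-0.74, adjusted p = 0.170). The thinned share of gCap cells with class II was 64.4 and 50% in ERG CKO, against 74.5 and 81.8% in WT (difference -21.0 points, exact permutation p = 0.333, the smallest possible). Unthinned shares were 94.2 and 94.7% in WT lungs against 82.4 and 64.3% in ERG CKO lungs, at median depths of 3979, 3773, 4930 and 4309 UMIs. Carrying cells again held overlapping amounts, 3.58 and 4.72 against 4.62 and 4.32 UMIs of 1000.

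Venous ECs had the same direction, with H2-Aa at 379.7 and 376 CPM in WT against 216 and 230.5 CPM in ERG CKO (log2 fold change -0.84, adjusted p = 0.347, edgeR) and a thinned share of 43.3 and 60% in ERG CKO. Clustered without alignment, venous ECs held overlapping class II levels (2143 and 2196 CPM in WT lungs, 2141 and 2559 CPM in ERG CKO lungs), with a log2 fold change of -0.06 for H2-Aa and 0.36 for Cd74, while the thinned share stayed lower (68.8 and 71.7% against 45.3 and 64.7%). The test passed 0.0209% of all genes in venous ECs and none of 6 class II genes. In aCap cells and arterial ECs the 4 chain genes had positive fold changes. None of the 4 passed in either type, where 10.7% and 0.0% of all genes did. The aCap thinned share was 24.1 and 12.2% in ERG CKO, against 9.30 and 9.72% in WT, but the summed level overlapped (425 and 115 against 123 and 219 CPM). Over the 4 subtypes, 0 of 21 tests passed with edgeR and 0 with DESeq2, against 3.94% of all tests with edgeR, and 11 had an unadjusted p of at most 0.05, against 13.7% of all tests. Of 8 EC clusters with at least 10 cells in every library, the thinned share was lower in both ERG CKO libraries in 6. It was higher in both in 2, the aCap and the arterial cluster. The class II level of the same 8 clusters was lower in both in 2, higher in both in 1 and overlapped in 5.

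This difference depended on which cells were compared as gCap. When the libraries were clustered without being aligned to each other, gCap cells of ERG CKO no longer held less class II than those of WT. The thinned share was 75.5 and 82.3% in WT lungs against 83.6 and 82.4% in ERG CKO lungs, which lay 4.08 points higher, and the fold changes of 6 of 7 genes became positive (0.02 for H2-Aa, 0.58 for Cd74). Ciita stayed negative. The largest of these gCap clusters, led by Iigp1, held 2673 and 3912 CPM in WT against 4755 and 3976 CPM in ERG CKO. The next, led by Lpl and Cxcl12, held 2635 and 4389 against 3928 and 4032 CPM.

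Many other ECs of ERG CKO then stood in clusters of their own. An unnamed cluster of 403 cells led by haemoglobin genes, F8 and Gja1 held 1 and 5 cells of WT and 240 and 157 cells of ERG CKO. In its ERG CKO cells class II was at 1156 and 596 CPM with thinned shares of 30 and 19.1%, and gCap markers summed to 2700 and 2745 CPM, against 7151 and 7210 CPM in WT cells of the largest gCap cluster. A cluster of 247 cells with aCap markers, all from ERG CKO, held 484 and 478 CPM with shares of 31.7 and 16.9%. The aCap cluster of WT (42 and 70 cells, with 4 and 1 from ERG CKO) held 124 and 218 CPM with shares of 9.52 and 10%. In this clustering, class II of ERG CKO cells was thus low in the unnamed cluster and the clusters with aCap markers. It was within or above the WT range in the larger gCap clusters. The order did not follow gCap markers in every cluster. In the venous cluster ERG CKO cells held 2141 and 2559 CPM of class II at 3105 and 3759 CPM of gCap markers. Library and cluster cannot be told apart for clusters that come almost wholly from one group.

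**Figure D4:**
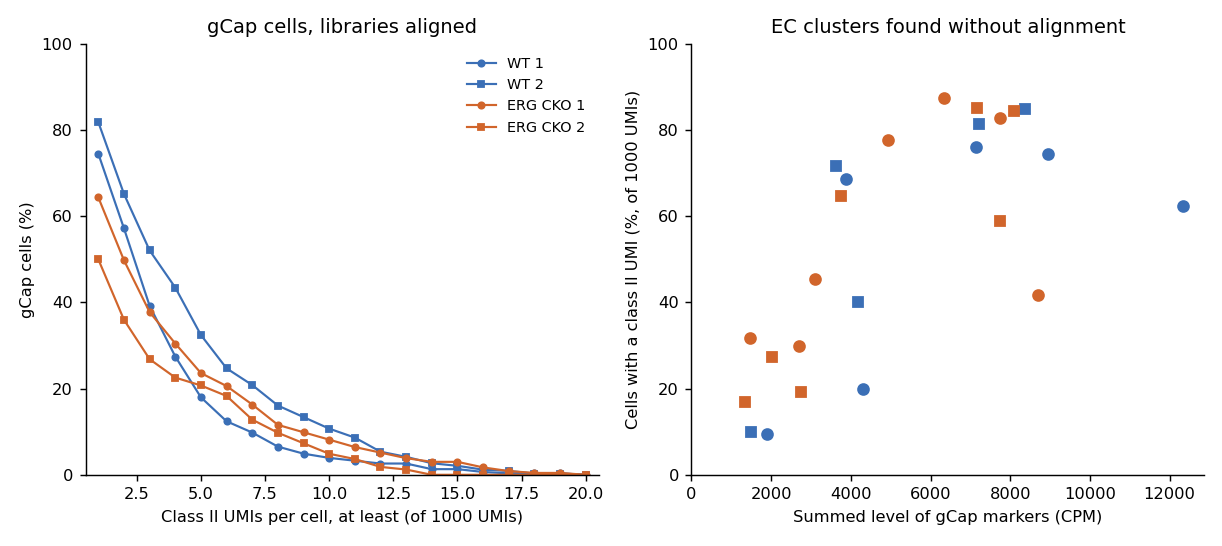
Left, the share of gCap cells (%, libraries aligned) with at least the number of class II UMIs on the x axis, of 1000 UMIs per cell, 1 line per library; at 1 UMI the lines start at 74.5 and 81.8% in WT lungs against 64.4 and 50% in ERG CKO lungs and meet at high counts. Right, EC clusters found without alignment, with 1 point for each cluster and library of at least 10 cells (WT blue, ERG CKO orange), by the summed level of gCap markers (CPM) and the thinned share of cells with a class II UMI (%).

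The partners of the class II genes were read from 6 lists, of class II partners, lysosomal processing, class II control, costimulation, the interferon gamma path and, for comparison, class I presentation. Of 401 tests over 49 listed genes in the cell types outside fibroblasts, 3 passed, close to the 0.559% of all tests in these cell types. Lgmn encodes legumain, a lysosomal protease that cuts antigens and the invariant chain. In ECs it was detected at 62.5 and 62.9 CPM in WT against 235 and 338 CPM in ERG CKO, and it rose by 2.14 on the log2 scale (SE 0.18, adjusted p = 0.00671, edgeR). Its groups lay far apart, and the fold change stayed between 1.88 and 2.36 and past the threshold under all 15 alternatives.

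Lgmn rose in aCap cells as well, from 64.7 and 56.1 CPM in WT to 612 and 681 CPM in ERG CKO (log2 fold change 3.42, SE 0.22, adjusted p = 5.83e-08, edgeR). In gCap cells it was at 56.2 and 58.9 against 135 and 246 CPM (1.66, SE 0.26, adjusted p = 0.00804), but without alignment its fold change there was -0.14. In that clustering Lgmn lay at 56.3 and 61.4 CPM in the larger gCap clusters, and at 337 and 586 CPM in the clusters made almost wholly of ERG CKO cells. The WT aCap cluster held little of either, with Lgmn at 58.5 CPM and class II at 177 CPM over all libraries.

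In dendritic cells Ifi30 rose from 589 and 721 CPM in WT to 1351 and 1285 CPM in ERG CKO (log2 fold change 1.005, SE 0.18, adjusted p = 0.0239, edgeR). Irf8, a transcription factor that cDC1 cells require, fell from 641 and 770 to 295 and 247 CPM (log2 fold change -1.38, SE 0.20, adjusted p = 0.0066, edgeR). The groups did not overlap for either gene. Ifi30 lost its call without either ERG CKO library and Irf8 without ERG CKO 2, with adjusted p of up to 0.624 for each.

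The other listed genes gave few calls. In ECs the 9 tested genes of the interferon gamma path had a median log2 fold change of 0.02 and the 10 tested genes of class II control, which hold the RFX and NF-Y subunits that bind the X and Y boxes, one of 0.00, with none called. Of all EC genes of at least 10 UMIs, 18.7% were lower in both ERG CKO libraries. Within the interferon gamma path this held for 3 of 9 genes, and 2 were higher in both and are not named here. The lower ones were Irf1, a transcription factor induced by interferon gamma, at 683 and 758 CPM in WT lungs, 557 and 429 CPM in ERG CKO lungs, and the GTPases Gbp2 (133 and 153 against 114 and 68.1 CPM) and Gbp4 (130.2 and 132 against 102 and 61.4 CPM). The 11 class I presentation genes had a median of -0.37 in ECs with none called, beside -0.70 and 1 of 7 for class II. For all genes these values were 0.01 and 2.98%. Both ERG CKO libraries were lower in 8 of the 11, against 6 of 7 for class II and the 18.7% of all EC genes. In EC subtypes 5 of 109 tests passed, close to the 3.94% of all tests there. Beside Lgmn in gCap and aCap cells these were all in aCap cells, where Ifngr1, a subunit of the interferon gamma receptor, rose by 0.72 (adjusted p = 0.022), and Tap2, a subunit of the peptide transporter, fell by 0.77 (adjusted p = 0.0282, edgeR). H2-T23, a class I molecule recognised by NK cells, fell by 0.84 (adjusted p = 0.00694, edgeR). Ifngr1 and Tap2 lost their calls under 5 alternatives each, DESeq2 among them, and H2-T23 without WT 2.

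The fibroblast cluster gave the contrast for which the genes were also chosen. It comprised 432 cells, and its class II level was 622 and 655 CPM in WT 1 and 2 against 2677 and 4260 CPM in ERG CKO 1 and 2, a log2 ratio of the group means of 2.44. The edgeR fit of this cluster called 0.941% of its genes, and nothing is read from that for the class II genes. Every chain gene showed it, with Cd74 at 233 and 243 CPM in WT against 1358 and 1963 CPM in ERG CKO, H2-Ab1 at 116 and 130 against 403 and 805 CPM, and H2-Aa at 118 and 113 against 400 and 667 CPM. H2-DMb1 (34.3 and 51.5 against 60.8 and 73.6 CPM) and H2-DMa (23.6 and 34.3 against 60.8 and 68.7 CPM) lay closer together, and Ciita was at 5.91 and 2.45 against 3.86 and 0 CPM, that is, not higher in ERG CKO.

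The cluster did not hold fibroblasts alone, and its class II counts lay mostly in cells with markers of other types. When it was clustered again, 2 of 6 subclusters had fibroblast markers by name, alveolar (83 cells) and adventitial (22 cells), and these held 173 and 376 CPM of class II over all libraries. A subcluster of 101 cells with a median of 8760 UMIs held 80.3% of the class II UMIs, and endothelial markers summed to 8194 CPM there, against 300.2 CPM in the alveolar fibroblasts. In the named subclusters alone, class II was at 150 and 68.9 CPM in WT against 313 and 762 CPM in ERG CKO, from 52, 11, 69 and 39 UMIs in 49, 25, 26 and 5 cells. The order of the groups was the same and the level lower in all 4 libraries, and ERG CKO 2 rested on 5 cells. Single cells held 21 and 14 of the 39 UMIs in ERG CKO 2 and 24 and 21 of the 69 in ERG CKO 1. In WT 1 a single cell held 23 of the 52. Endothelial markers in the named subclusters summed to 277 and 132 CPM in WT against 318 and 1622 CPM in ERG CKO, and their part was not tested. The thinned share there was 8.16 and 12% against 15.4 and 40% (unthinned 34.7 and 40% against 57.7 and 80%), and T cells lay at 5.38 to 8.49%.

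Few cells carried most of the signal. Cells with at least 20 class II UMIs numbered 10 and 5 in WT lungs against 26 and 6 in ERG CKO lungs, and they held 52.7 and 54.3% of the class II UMIs of the cluster in WT against 84.5 and 94.9% in ERG CKO. All of them held at least 2 UMIs of endothelial markers, but some held few for their depth. The ERG CKO 1 cell with 174 class II UMIs held 2 of 6104 UMIs, and that with 697 held 393 of 61504. A WT 1 cell with 23 held 3 of 18861. An interstitial macrophage marker was held by 2 and 2 of these cells in WT lungs against 18 and 3 in ERG CKO lungs. The highest single cells held 35 and 41 class II UMIs in WT against 697 and 646 in ERG CKO. Interstitial macrophage markers summed to 67.4 and 71.1 CPM over the cluster in WT and 292 and 947 CPM in ERG CKO, with none of the 7 at 0. B cell markers summed to 48.5 and 93.2 against 105 and 73.6 CPM. Without the cells of at least 20 class II UMIs the level was 345 and 383 CPM in WT against 648 and 441 CPM in ERG CKO, a log2 ratio of 0.58. Without the single highest cell of each library it was 603 and 646 against 2131 and 1335 CPM, a log2 ratio of 1.47.

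**Figure D5:**
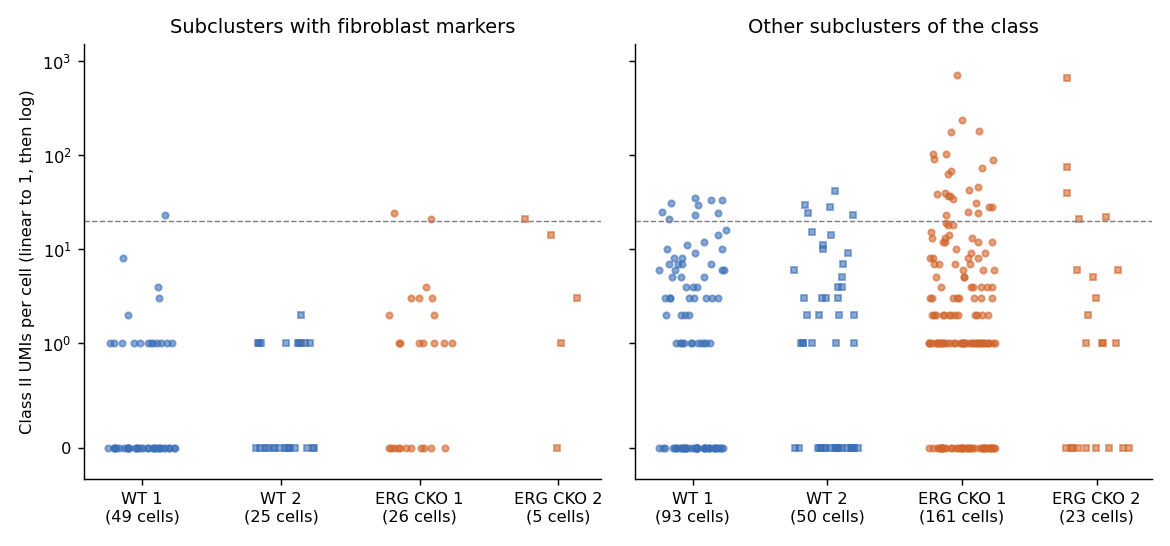
Class II UMIs in each cell of the fibroblast cluster (log scale above 1, linear below), split into the 2 subclusters with fibroblast markers (left) and the other subclusters (right), by library; the dashed line is at 20 UMIs. In the left panel 1, 0, 2 and 1 cells lie above the line, and the cells of 697 and 646 UMIs lie in the right panel.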

How the data were processed

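The authors dissociated whole lungs, captured single cells with the 10x Genomics GemCode platform and processed the reads with Cell Ranger (version 3.1.0 and build mm10 in the submitters' processing notes). They deposited raw counts of UMIs, not normalized and without cell names, with 500 UMIs and 300 genes in a cell at least. The study kept fewer cells after a quality filter whose limits are not given in the sources used here, so results can differ from the study's through the cells kept or the names rebuilt here. The class II genes and all lists were chosen with earlier results of these data known.

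All 9363 cells were kept. Scrublet (scanpy 1.11.5) called 60 (0.641%) doublets, which were kept and left out as an alternative. Cells were clustered with Seurat 5.3.0 (2000 variable genes, 66 listed genes left out, CCA alignment of the 4 libraries, 30 dimensions, resolution 0.8), ECs again with 20 dimensions at 0.6, and fibroblasts without alignment, which could not be fitted to so few cells, with 10 dimensions at 0.4. A name needed at least 3 markers of a list. Counts were summed per library and tested with edgeR 4.0.16 in R 4.3.3 (quasi-likelihood, TMM, filterByExpr, no covariate, Benjamini-Hochberg over all genes, adjusted p of at most 0.05), after the test had been tried on simulated data; DESeq2 1.42.0 was an alternative. SE is that of the log2 fold change. Shares were compared by exact permutation (scipy 1.17.1) after hypergeometric thinning to 1000 UMIs. The likeness of genes used log2(CPM + 10) and genes of at least 50 CPM in a cell type. All 7 class II genes, called genes of the lists, the 5 most alike genes and Erg are named by rule, except that 1 of the 5 is not reported here. Markers of dendritic cells, leading genes and markers of EC and fibroblast clusters, and Irf1, Gbp2 and Gbp4 in ECs, were named after their values were seen. Counting without strand or of near-identical copies (H2-DMb1 and H2-DMb2) could move UMIs between genes. With 2 mice per group, p-values measure the spread between these mice, and a level without replicates covers counting error only. Protein sequences were not used here.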

Additional observations from a re-analysis of the deposited data

Results flagged for a closer look

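The share of cells with a class II UMI after thinning moved in opposite directions in EC subtypes, without overlap of the groups. ERG CKO minus WT was -21.0 points in gCap cells and -20.6 points in venous ECs, but 8.64 points in aCap cells and 9.81 points in arterial ECs. The difference between subtypes was not tested, and without alignment the gCap value took the opposite sign and the arterial groups overlapped (20 and 40% in WT, 77.8 and 27.3% in ERG CKO).

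The summed class II level did so among haematopoietic cells. The log2 ratio of ERG CKO to WT was 0.34 in dendritic cells and 1.16 in platelets, but -0.32 in non-classical monocytes. This difference was not tested either. Platelets held 1120 and 1098 CPM in WT and 2499 and 2447 CPM in ERG CKO, at endothelial marker levels of 8480 and 5890 against 4980 and 5871 CPM, whose part in the values was not tested.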

How the results depend on the processing

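The count of class II genes called over cell types (1) was 10 without a filter on low counts, 3 with DESeq2, 0 without cells carrying a leukocyte marker and 6 to 11 when 1 library was left out. In EC subtypes (0) it was 5 without the filter, 4 without alignment (all in aCap cells) and 1 to 3 with a library left out. For the lists (3) it was 21 without the filter and 7 to 12 with a library left out. A lone remaining library was assumed to vary like the others. Outside fibroblasts, cells carrying a leukocyte marker were left out of ECs only, and the other cell types entered that count with their main fit.

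Replicate numbers are shared between the groups, but the labels do not say that they mark a pair. Same-numbered libraries deviated together with r = 0.30 in ECs and 0.21 in gCap cells, over only 2 pairs. The number followed sex in both groups, as read from Xist and Ddx3y, so the block is also one of sex. With the replicate number as a block, 5 class II genes were called over cell types, all in ECs (Ciita, H2-Aa, H2-Ab1, H2-DMa and H2-DMb1), 4 over EC subtypes and 17 on the lists.

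The log2 ratio of the fibroblast cluster (2.44) was 1.47 without the highest cell of each library, 1.88 after thinning, 2.86 after subtracting the T cell level, 0.58 without cells of at least 20 class II UMIs and 2.07 to 2.74 with a library left out. The EC share stayed between -26.4 and -16.5 points over its alternatives. The gCap share was 4.08 points without alignment. Without alignment gCap fold changes also turned, to 0.025 for H2-Aa, 0.056 for H2-Ab1, 0.16 for H2-Eb1, 0.58 for Cd74, 0.32 for H2-DMa, 0.15 for H2-DMb1 and -0.14 for Lgmn. With a library left out, Cd74 ranged from -0.56 to 0.10 in ECs and from -0.55 to 0.21 in gCap cells, turning without WT 2 and without ERG CKO 2. In dendritic cells H2-DMb1, near 0 throughout, turned to 0.040 without the filter, 0.0053 with DESeq2, 0.070 without alignment and 0.063 without the highest cell. With a library left out it ranged from -0.060 to 0.057, Ciita there from -0.17 to 0.83 (turning without WT 2), and Erg in ECs from -0.15 to 0.24 (turning without ERG CKO 1). Erg was -0.091 without cells carrying a leukocyte marker. The cause of these changes was not tested. Depth limits Ciita most, at about 5 CPM in ERG CKO ECs, and 2 mice per group limit every p.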

Other observations

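Of the cells left without a name, 865 were of low depth (median 992 UMIs). Their class II level was alike in all libraries, at 1812 and 1646 CPM in WT and 1875 and 1739 CPM in ERG CKO. A cluster of 140 cells with markers of both alveolar type 1 and club cells held 267 and 844 CPM in WT and 1933 and 3915 CPM in ERG CKO, on 27, 9, 51 and 53 cells with median depths of 6406, 2454, 1776 and 658 UMIs. Depth moved with the level in this cluster, and its part was not tested.

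Some class II partners were abundant in B cells and dendritic cells and near 0 in ECs. H2-Oa, a subunit of the H2-DO inhibitor of H2-DM, was at 227, 276, 217 and 235 CPM in B cells of WT 1, WT 2, ERG CKO 1 and ERG CKO 2 and at 124, 126, 216 and 222 CPM in dendritic cells. In gCap cells it had no UMI in any library, and in ECs it did not exceed 1.29 CPM. H2-Ob, its partner, was at 361 to 428 CPM in B cells and 2.98 to 5.16 CPM in ECs. H2-DMb2, the second H2-DM beta gene, was at 392 to 545 CPM in B cells and no more than 4.95 CPM in ECs.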
